A study of Mus musculus with 9 samples.

Results

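The interstitial matrix and matrix remodelling genes are 42 genes of collagen, elastic fibre, proteoglycan, matricellular, protease and crosslinking families, chosen by gene symbol from a table of 48733 rows. They were measured by RNA-seq in whole submandibular glands (SMGs) of adult male mice on a C57BL/6 background, 4 wildtype (WT) and 5 lacking Hs3st3a1 and Hs3st3b1 (DKO). In the DKO, Hs3st3b1 carries a null allele made from embryonic stem cells, and Hs3st3a1 on the same chromosome carries a frameshift deletion in exon 1 made with zinc finger nucleases. Both enzymes add 3-O-sulfate groups to heparan sulfate. Both deletions are constitutive and present in every cell type. The founder line, the exact age and whether each gland came from a different mouse are not given in the sources used here, so p-values measure the spread between these glands. The comparison asks whether transcripts of the matrix outside the basement membrane differ when both enzymes are lost.

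Interstitial matrix is the fibrous material between the epithelial units of a gland, made mostly by fibroblasts. Fibrillar collagens give it strength, elastic fibres give recoil, small proteoglycans bind to collagen fibrils and set their spacing, and matricellular proteins change how cells bind to it. Metalloproteinases cut these proteins, TIMP proteins inhibit the metalloproteinases, and lysyl oxidases and procollagen proteinases finish the fibrils. In the salivary gland such stroma surrounds acini, ducts and vessels and carries growth factors that bind heparan sulfate.

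Total counts were between 17053747 and 37870519 per library. Hs3st3a1 had between 3 and 14 counts in WT and 0 in each of the 5 DKO libraries, and Hs3st3b1 had between 67 and 216 in WT and between 7 and 45 in DKO. The library DKO 1 stood apart in parotid gland genes, whose summed level was 8070 CPM (reads scaled to the size of the library) there. It was between 24.4 and 48.4 CPM in WT and between 57.5 and 92.3 in the other 4 DKO libraries, so the sums did not overlap without DKO 1 either. The 2 genes past the filter went opposite ways there. Bpifa2 was between 4.42 and 26.53 CPM in WT and between 43.31 and 79.14 in DKO 2 to 5. Amy1 was between 17.32 and 25.45 CPM in WT and between 7.10 and 14.14 in DKO 2 to 5. DKO 5 was the shallowest library. The library sizes behind CPM were adjusted by trimmed mean of M values (TMM) factors throughout. These factors were between 1.086 and 1.196 in WT and were 0.986, 0.912, 0.774, 1.112 and 0.809 in DKO 1 to 5. The 20 genes with the most counts held between 52.93% and 58.67% of counts in WT and between 59.44% and 70.33% in DKO. In these bulk samples, fewer cells of a type and less RNA per cell cannot be told apart.

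Most matrix genes were lower in DKO than in WT glands, but the difference passed the test for 1 of them. Postn, which encodes the matricellular protein periostin, fell to 42.2% of its WT level. Of the 41 members that passed the filter on low counts, 37 had a log2 fold change below 0 and 4 above 0, with a median of -0.49. Over all 13842 genes tested the median was 0.015, and 47.5% were below 0. With edgeR's quasi-likelihood test, adjusted by Benjamini-Hochberg across the table, Postn was the single member called. Of all genes, 0.462% were called lower and 0.166% higher, 0.629% in all. DESeq2 called 7 members, all lower (Postn, Thbs1, Timp2, Tnc, Col6a2, Sparc and Bgn), where 2.68% of all genes were called lower and 1.77% higher, 4.45% in all. An unadjusted edgeR p under 0.05 was found for 20 members, all lower in DKO, against 7.6% of all genes lower and 6.89% higher. The 2 groups did not overlap for 5 members, Col6a2, Col6a3, Postn, Thbs1 and Timp2, all lower in DKO, where 3.51% of all genes had all DKO libraries below all WT libraries and 2.49% had them above. The call for Postn was lost when any of WT 1, WT 3, WT 4, DKO 1, DKO 2, DKO 3 or DKO 5 was left out. In each of these 7 fits at most 2 genes of the whole table were called. The log2 fold change of Postn lay between -1.40 and -1.06 over all 9 such fits. Without DKO 4, 7 members were called lower, against 2.04% of all genes.

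**Figure D1:**
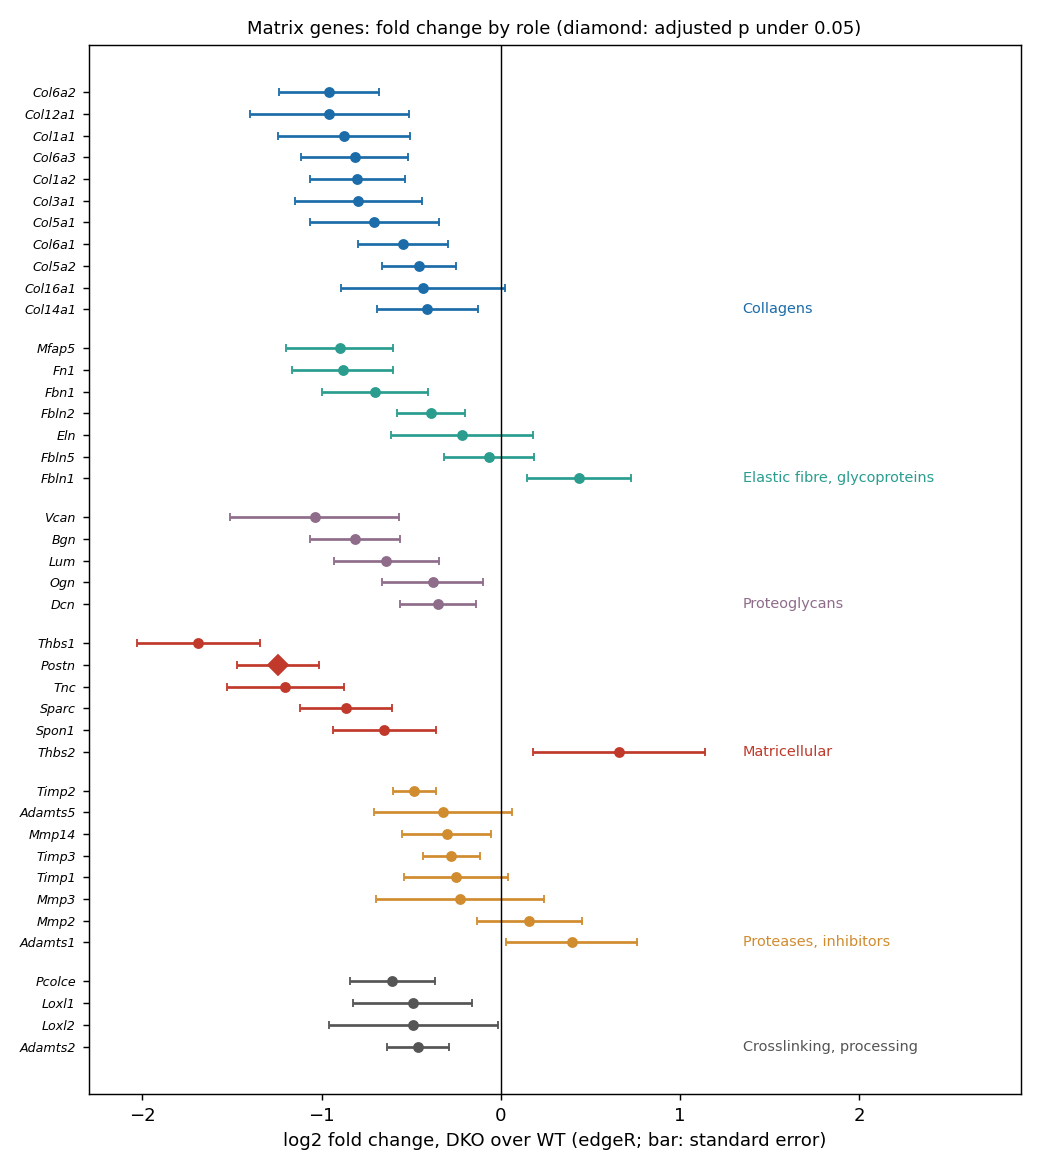
log2 fold change of DKO over WT on the x axis for the 41 matrix genes tested, 1 row per gene in the order of size within each role; bars are the standard error of the edgeR fit and the diamond marks the gene with an adjusted p under 0.05. All 11 collagens lie left of 0, from -0.96 to -0.41, and Thbs1 lies farthest left at -1.69.

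The sequence before the transcription start is shown for 5 of the members with the largest or most separated differences, since they moved in the same direction. The windows are RefSeq promoter sequence (build GRCm38.p6), 250 bases before the start, 5′ to 3′ on the gene's strand. Of the 42 members, 26 had a window. Thbs1, with the largest difference, had none, and the window of Timp2 was not shown because it overlaps annotated exons. The motifs searched, on both strands, were the TATA box as TATAAA and the GC box of Sp1 as GGGCGG. The AP-1 site was searched as TGACTCA. The site of TEAD factors was searched as GGAATG, and the CArG box of serum response factor was searched by its consensus. Capitals mark the matches, of which none overlapped another.
Postn (chr3:54360857-54361106, + strand): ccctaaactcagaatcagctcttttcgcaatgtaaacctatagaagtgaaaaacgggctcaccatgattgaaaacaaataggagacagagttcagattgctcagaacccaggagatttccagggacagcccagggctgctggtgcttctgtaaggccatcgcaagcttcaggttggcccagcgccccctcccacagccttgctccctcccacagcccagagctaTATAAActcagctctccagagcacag
Tnc (chr4:64047016-64047265, - strand): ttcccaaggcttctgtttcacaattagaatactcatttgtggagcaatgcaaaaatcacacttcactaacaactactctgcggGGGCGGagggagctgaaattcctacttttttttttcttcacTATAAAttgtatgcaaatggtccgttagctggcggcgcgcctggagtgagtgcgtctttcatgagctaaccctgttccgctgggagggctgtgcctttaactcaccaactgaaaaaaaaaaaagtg
Col6a2 (chr10:76623631-76623880, - strand): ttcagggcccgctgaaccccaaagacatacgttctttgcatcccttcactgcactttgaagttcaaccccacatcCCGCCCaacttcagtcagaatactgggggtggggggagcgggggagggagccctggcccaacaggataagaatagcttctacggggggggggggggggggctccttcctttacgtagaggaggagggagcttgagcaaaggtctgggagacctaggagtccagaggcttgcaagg
Col6a3 (chr1:90843972-90844221, - strand): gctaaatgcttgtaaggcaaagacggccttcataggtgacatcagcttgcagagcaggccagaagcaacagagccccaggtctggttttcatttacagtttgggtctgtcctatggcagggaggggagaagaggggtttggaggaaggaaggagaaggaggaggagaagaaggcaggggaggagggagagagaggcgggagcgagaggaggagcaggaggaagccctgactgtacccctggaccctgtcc
Vcan (chr13:89742513-89742762, - strand): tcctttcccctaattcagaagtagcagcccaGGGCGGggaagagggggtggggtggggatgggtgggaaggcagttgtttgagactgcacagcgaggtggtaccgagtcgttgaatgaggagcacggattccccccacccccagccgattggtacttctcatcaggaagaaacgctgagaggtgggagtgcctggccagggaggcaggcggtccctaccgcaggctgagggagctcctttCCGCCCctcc
TATAAA lay 26 bases before the Postn start and 126 bases before the Tnc start, counted at the first base of the match. It was present in 26.9% of the 26 members' windows and in 12.4% of all 32851 windows. GGGCGG was present in 65.4% of the members' windows and 32.7% of all, with a match in the windows of Tnc, Col6a2 and Vcan. TGACTCA was in 7.69% of the members' windows against 4.46%, and GGAATG in 11.5% against 12.6%. The CArG box was in 0 of the 26 windows and in 1.47% of all. These matches are descriptions of the letters and were not tested. Each member had a single window, the one nearest its annotated start. The 32851 windows were all those listed, and a gene can have several. The shares are therefore of unlike sets.

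The matricellular genes had the lowest median of the 6 roles, -1.03 over 6 genes, and 5 of the 6 were lower in DKO. Periostin is a secreted protein that binds collagen and integrins and is abundant in remodelling stroma. In this gland the study's paper describes Postn as expressed in basal ducts and in myoepithelial cells, the contractile cells around acini. The paper also reports lower Postn in DKO glands of both sexes by quantitative PCR. Postn (chr3:54361109-54391037, GRCm38, plus strand) was at 18.6, 8.83, 12.1 and 14.8 CPM in WT 1 to 4 and at 4.60, 5.59, 4.22, 7.98 and 6.24 CPM in DKO 1 to 5. The groups did not overlap, and the highest DKO library, DKO 4, lay just under the lowest WT library. The log2 fold change was -1.24 (SE 0.23, edgeR quasi-likelihood adjusted p = 0.0478). Over all alternatives, its adjusted p lay between 0.000126 and 0.198 and its log2 fold change between -1.50 and -1.06.

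Thbs1 encodes thrombospondin 1, a protein that activates latent TGF-beta and inhibits angiogenesis. Thbs1 (chr2:118111876-118127133, plus strand) was at 12.7, 7.30, 13.2 and 11.98 CPM in WT 1 to 4 and at 3.02, 2.96, 1.33, 6.68 and 3.48 CPM in DKO 1 to 5. WT 2 was the lowest WT library and DKO 4 the highest DKO library, and these 2 lay close together without overlapping. Its log2 fold change of -1.69 (SE 0.34) was the largest difference among the members, with an edgeR adjusted p of 0.0506 and a DESeq2 adjusted p of 2.4e-04. It was called in edgeR without WT 2 (adjusted p = 0.0300) and without DKO 4 (adjusted p = 0.0149). Thbs1 shares 3.42% of its exon bases with an antisense transcript, and strand was not kept in these libraries.

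Tnc encodes tenascin C, a large glycoprotein that weakens cell adhesion. Tnc (chr4:63959785-64047015, minus strand) was at 1.61, 1.07, 2.06 and 2.10 CPM in WT and at 0.645, 1.11, 1.01, 0.474 and 0.435 CPM in DKO. DKO 2 lay above WT 2, so the groups overlapped in these libraries. The log2 fold change was -1.20 (SE 0.33, edgeR adjusted p = 0.104), and DESeq2 called it at an adjusted p of 0.0235.

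Sparc encodes osteonectin, a collagen-binding protein of many secretory and stromal cells. Its level was 142.9, 106.8, 98.7 and 126.5 CPM in WT 1 to 4 and 53.4, 103, 52.6, 81.7 and 35.8 CPM in DKO 1 to 5. DKO 2 alone lay inside the WT range. Sparc had a log2 fold change of -0.86 (SE 0.26, edgeR adjusted p = 0.138, DESeq2 adjusted p = 0.0282). Spon1 (spondin 1) had a log2 fold change of -0.65. Thbs2, which encodes a relative of thrombospondin 1, was the exception in the role, with a log2 fold change of 0.66 (SE 0.48) at a mean of 0.397 CPM in WT and 0.591 in DKO.

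**Figure D2:**
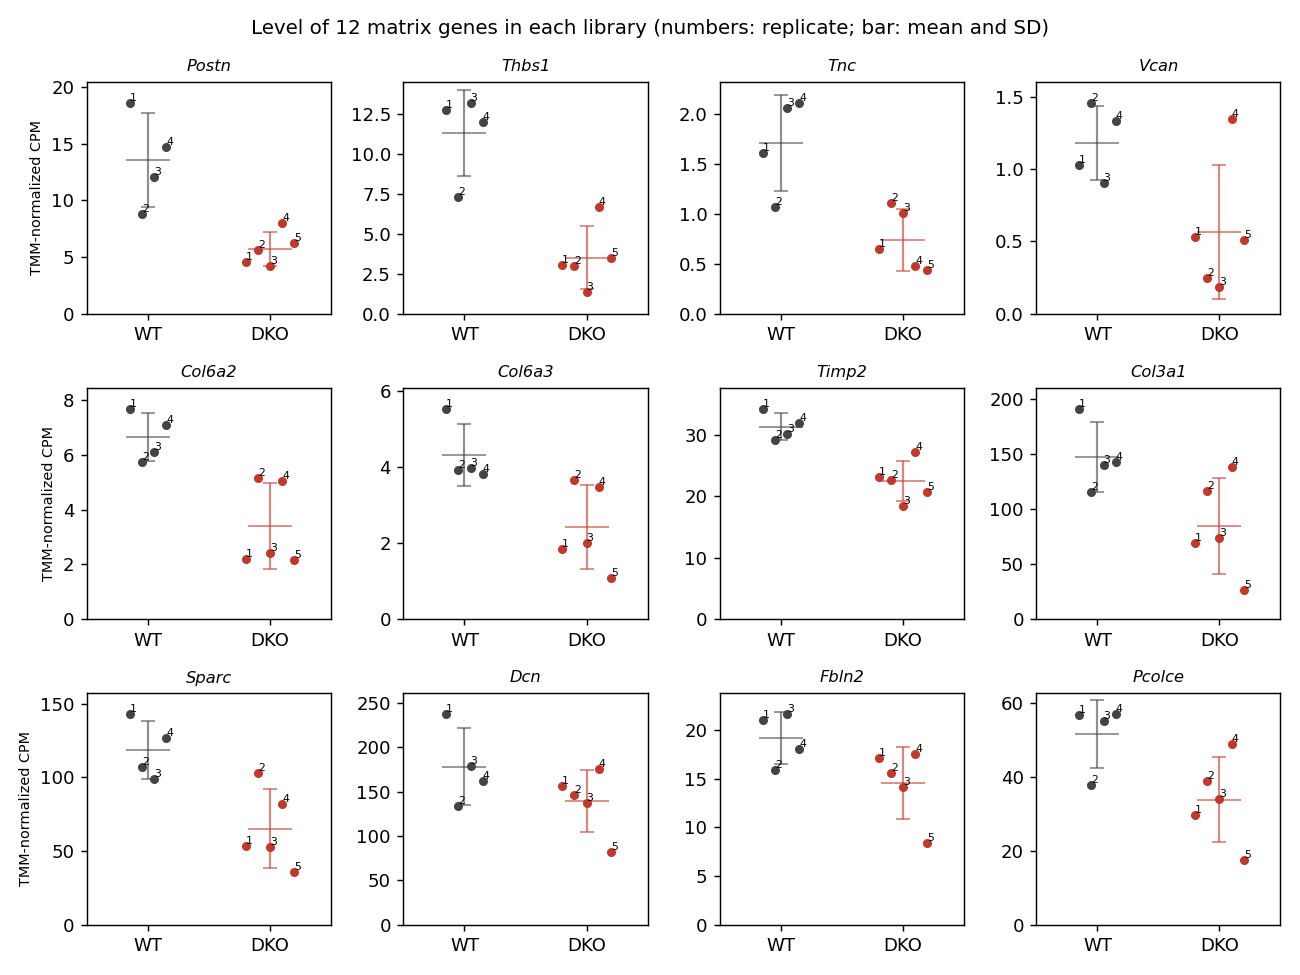
TMM-normalized CPM (y axis, from 0) of 12 matrix genes in each WT (grey) and DKO (red) library, with replicate numbers, the mean as a horizontal bar and the SD as an error bar. The groups do not overlap for Postn, Thbs1, Timp2, Col6a2 and Col6a3, and DKO 5 is the lowest library for Col3a1, Sparc, Dcn, Fbln2 and Pcolce.

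All 11 collagens had a log2 fold change below 0, from -0.96 to -0.41 with a median of -0.79, and none passed the edgeR test. At an unadjusted edgeR p under 0.05 there were 7, and DESeq2 called 1, Col6a2. Collagen VI forms beaded filaments from 3 chains that assemble together. Col6a2 (chr10:76595762-76623630, minus strand) was at 7.68, 5.74, 6.12 and 7.08 CPM in WT 1 to 4 and at 2.20, 5.14, 2.43, 5.06 and 2.18 CPM in DKO 1 to 5. DKO 2 and DKO 4 lay just under WT 2 and the other 3 DKO libraries far lower. The log2 fold change was -0.96 (SE 0.28, edgeR adjusted p = 0.130, DESeq2 adjusted p = 0.0278).

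Col6a3 (chr1:90765923-90843971, minus strand) was at 5.54, 3.94, 3.98 and 3.82 CPM in WT and at 1.85, 3.66, 2.02, 3.48 and 1.09 CPM in DKO. The groups were separated by less than the distance between WT 1 and the other WT libraries. Col6a3 had a log2 fold change of -0.81 (SE 0.30, edgeR adjusted p = 0.233). Col6a1, which lies beside Col6a2 on chromosome 10, had a log2 fold change of -0.55 (SE 0.25).

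Col3a1 encodes the fibrillar collagen of soft stroma and had the most reads of the collagens. It was at 190.8, 115.7, 139.8 and 142.6 CPM in WT 1 to 4 and at 69.3, 116.6, 73.4, 138.1 and 26.7 CPM in DKO 1 to 5. DKO 2 and DKO 4 lay inside the WT range, and DKO 5 was the lowest of the 9. Col3a1 had a log2 fold change of -0.79 (SE 0.35, edgeR adjusted p = 0.330). Col1a1 and Col1a2, whose products form the type I collagen trimer, had log2 fold changes of -0.87 and -0.80. The type V chains that start fibrils, Col5a1 and Col5a2, had -0.71 (SE 0.36) and -0.46 (SE 0.21). The fibril-associated Col12a1, Col14a1 and Col16a1 had -0.96, -0.41 and -0.44, the first at under 1 CPM in the WT mean.

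Ratios between chains within a library do not depend on how that library was scaled. The log2 ratio of Col1a1 to Col1a2 counts was -0.15 ± 0.37 (SD, n = 4) in WT against -0.32 ± 0.31 (SD, n = 5) in DKO, exact permutation p = 0.452. The log2 ratio of Col3a1 to Col1a1 was 1.83 ± 0.44 in WT and 1.91 ± 0.21 in DKO, exact permutation p = 0.683. For Col6a1 to Col6a2 it was 0.71 ± 0.09 in WT and 1.14 ± 0.43 in DKO, exact permutation p = 0.0714. DKO 1 had the highest Col6a1 to Col6a2 ratio, 1.81, and DKO 5 the lowest of the DKO libraries, 0.70. None of the 4 ratios tested passed, with adjusted p between 0.286 and 0.683 over these 4 two-sided tests. Without DKO 5 the differences of Col6a1 to Col6a2 (0.54) and of Timp2 to Mmp2 (-0.82) each had an unadjusted exact permutation p of 0.0286. With no library left out, the smallest exact p that 126 splits of 4 against 5 allow is 0.00794. Without DKO 5 the groups are 4 against 4, and 0.0286 is the smallest two-sided exact permutation p possible there.

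All 5 proteoglycans had a log2 fold change below 0, with a median of -0.64, and edgeR called none of them. An unadjusted edgeR p under 0.05 was found for 2, and DESeq2 called Bgn. Dcn, which encodes decorin, a small proteoglycan that coats collagen fibrils, had the most reads of the role. It was at 237, 133.9, 179.1 and 161.7 CPM in WT 1 to 4 and at 156.4, 146.5, 137.3, 175.9 and 82.3 CPM in DKO 1 to 5. All DKO libraries but DKO 5 lay inside the WT range. Its log2 fold change was -0.35 (SE 0.21, edgeR adjusted p = 0.507).

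Vcan encodes versican, the large proteoglycan that binds hyaluronan. Vcan (chr13:89655312-89742509, minus strand) was at 1.03, 1.45, 0.906 and 1.33 CPM in WT and at 0.527, 0.247, 0.183, 1.34 and 0.508 CPM in DKO. DKO 4 lay inside the WT range and the other 4 DKO libraries lay below it. Its log2 fold change was -1.04 (SE 0.47, edgeR adjusted p = 0.341) and was -1.67 without DKO 4 (edgeR adjusted p = 0.0414). Bgn (biglycan) had a log2 fold change of -0.81 (SE 0.25, edgeR adjusted p = 0.149, DESeq2 adjusted p = 0.0389). Lum (lumican), the neighbour of Dcn on chromosome 10, had -0.64, and Ogn (osteoglycin) had -0.38.

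The elastic fibre and glycoprotein genes were more mixed, with 6 lower and 1 higher in DKO and a median log2 fold change of -0.39. None passed the edgeR test or DESeq2, and 3 had an unadjusted edgeR p under 0.05. Fbln2 encodes fibulin 2, which links elastic fibres to basement membranes, and had the most reads of the role. It was at 21.02, 15.9, 21.6 and 18.0 CPM in WT 1 to 4 and at 17.1, 15.6, 14.2, 17.6 and 8.34 CPM in DKO 1 to 5. The groups overlapped, with DKO 1 and DKO 4 inside the WT range. The log2 fold change of Fbln2 was -0.39 (SE 0.19, edgeR adjusted p = 0.389).

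Among the others of the role, Mfap5 (a microfibril component), Fn1 (fibronectin) and Fbn1 (fibrillin 1) had log2 fold changes of -0.90, -0.88 and -0.70. Eln (elastin) had -0.22 and Fbln5, a fibulin needed for elastic fibre assembly, had -0.07. Fbln1, encoding another fibulin, had 0.44 (SE 0.29), from 2.31 CPM in WT to 3.08 in DKO. Reads of Fbn1 are uncertain because 20.1% of its exon bases lie under an antisense gene.

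The proteases and inhibitors differed least, with a median log2 fold change of -0.26 over 8 genes, of which 6 were lower and 2 higher. The edgeR test called none of them, 1 had an unadjusted p under 0.05, and DESeq2 called that gene, Timp2. TIMP2 inhibits metalloproteinases and also takes part in the activation of pro-MMP2 at the cell surface. Timp2 (chr11:118301069-118355740, minus strand) was at 34.2, 29.1, 30.1 and 31.9 CPM in WT 1 to 4 and at 23.1, 22.7, 18.4, 27.1 and 20.6 CPM in DKO 1 to 5. Timp2 had the tightest values of the 5 members whose groups did not overlap, and all DKO libraries lay under WT 2. Its log2 fold change was -0.48 (SE 0.12, edgeR adjusted p = 0.0755, DESeq2 adjusted p = 0.0109).

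The gelatinase gene Mmp2 had a log2 fold change of 0.16 (SE 0.30), which became -0.13 with total-count scaling. Mmp14, which encodes the membrane-bound collagenase that activates pro-MMP2, had -0.30, and Mmp3 (stromelysin 1) had -0.23. The aggrecanase genes Adamts1 and Adamts5, neighbours on chromosome 16, had 0.40 and -0.32. Timp1 had -0.25 and Timp3 had -0.28, where 21.3% of the exon bases of Timp3 lie under the antisense gene Syn3. The log2 ratio of Timp2 to Mmp2 counts was 2.29 ± 0.13 (SD, n = 4) in WT against 1.79 ± 0.82 (SD, n = 5) in DKO, exact permutation p = 0.302. This ratio was 3.09 in DKO 5, above all WT libraries, and between 0.81 and 1.82 in the other 4 DKO libraries, below all of them.

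The 4 crosslinking and processing genes tested all had a log2 fold change below 0, with a median of -0.49, and neither edgeR nor DESeq2 called any of them. An unadjusted edgeR p under 0.05 was found for 2. Pcolce encodes an enhancer of the enzyme that trims the procollagen C-terminus, and had the most reads of the role. It was at 56.8, 37.8, 55.2 and 57.0 CPM in WT 1 to 4 and at 29.8, 39.1, 34.1, 48.9 and 17.6 CPM in DKO 1 to 5. WT 2 stood below the other 3 WT libraries and overlapped the DKO range. Its log2 fold change was -0.61 (SE 0.24, edgeR adjusted p = 0.260). Adamts2, encoding the procollagen N-proteinase, had -0.46, and the lysyl oxidase genes Loxl1 and Loxl2 had -0.49 and -0.49. Lox itself did not pass the filter, with between 6 and 14 counts in WT and between 4 and 16 in DKO.

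Levels per kilobase of exon put the members on a common scale. In WT the highest were Sparc at 31.4 ± 5.26 CPM per kb (SD, n = 4) and Dcn at 30.5 ± 7.46, which lay within their spread of each other. Col3a1 at 15 ± 3.20, Bgn at 14.2 ± 3.02, Pcolce at 13.5 ± 2.43 and Lum at 13.2 ± 3.33 followed and were not separated from one another by their SDs. In DKO, Dcn was at 23.9 ± 6.01 and Sparc at 17.2 ± 7.06 CPM per kb (SD, n = 5).

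The DKO libraries differed widely among themselves in these genes. The median member lay at 0.23, -0.26, -0.10 and 0.10 in WT 1 to 4, as log2 CPM minus the WT mean of log2 CPM. In DKO 1 to 5 it lay at -0.77, -0.22, -0.71, -0.11 and -1.39. DKO 2 and DKO 4 thus lay inside the range of the WT libraries, and DKO 1, DKO 3 and DKO 5 below it. The median over all genes was within 0.01 of 0 in every library. DKO 5 was the lowest of the 9 libraries for 28 of the 42 members, and WT 1 was the highest for 21. The summed level of the members was between 721.2 and 1104 CPM in WT and between 317.4 and 808.6 CPM in DKO.

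Without DKO 5, 35 of 41 members were below 0 with a median of -0.45, and edgeR called 0 of 13847 genes in the whole table, members included, with 17 members at an unadjusted p under 0.05. Without DKO 1, 37 of 40 were below 0 with a median of -0.56, and edgeR called no member and 1 of 13676 genes in the whole table, with 13 members at an unadjusted p under 0.05. Gland numbers in the labels fall into 3 ranges that each hold both groups, and what the numbers stand for is not stated. The ranges held 2 WT and 2 DKO, 1 WT and 2 DKO, and 1 WT and 1 DKO libraries. In that order 35, 35 and 37 of the 41 members were lower in DKO. The median member differed by -0.459, -0.685 and -0.899, and the median of all genes by 0.003, -0.004 and -0.006. The last range rests on 1 library of each group. With the range as a term, edgeR called 2 members lower, Postn and Thbs1, against 1.67% of all genes.

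**Figure D3:**
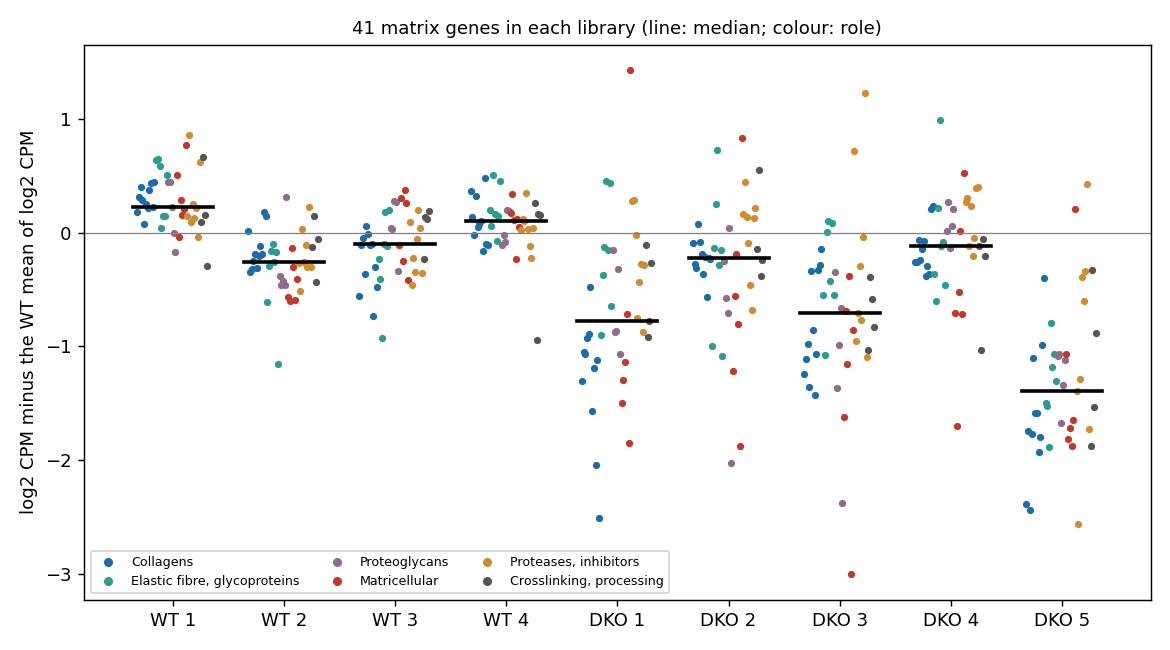
log2 CPM minus the WT mean of log2 CPM (y axis) for each of the 41 matrix genes tested (points, coloured by role) in each library (x axis), with the median as a line. The medians of DKO 2 and DKO 4, -0.22 and -0.11, lie within the WT medians of -0.26 to 0.23, and that of DKO 5 is lowest at -1.39.

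Matrix genes outside the 42 members differed less, though members and lists were chosen with earlier results of these data known. Of 164 such genes in 7 lists, 101 passed the filter, 66 below 0 and 35 above 0, with a median log2 fold change of -0.13. The edgeR test called 1 of them, lower. DESeq2 called 7, 5 lower and 2 higher, where 4.45% of all genes were called. The called gene was Fmod, encoding fibromodulin, a small proteoglycan that binds collagen fibrils. Fmod was at 12.6, 11.4, 14.5 and 13.3 CPM in WT and at 5.33, 7.45, 5.55, 9.21 and 6.53 CPM in DKO, with no overlap. Its log2 fold change was -0.93 (SE 0.17, edgeR adjusted p = 0.0478).

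The other elastic fibre and glycoprotein genes stood nearest to the members, with 21 of 27 below 0 and a median of -0.36. Fbln7 had the smallest adjusted p there, with a log2 fold change of -1.003 (SE 0.23, edgeR adjusted p = 0.0625). The collagen synthesis and processing enzymes were evenly split, with 9 below and 8 above 0. Bmp1, the procollagen C-proteinase that Pcolce enhances, had a log2 fold change of -0.80 (SE 0.16, edgeR adjusted p = 0.0506, DESeq2 adjusted p = 0.00158). Of 15 receptors for interstitial matrix, 12 were below 0, and Itgb3, the integrin beta 3 chain, had a log2 fold change of -1.62 (SE 0.38, edgeR adjusted p = 0.0654).

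Of the other proteoglycan and hyaluronan genes, 5 were below and 5 above 0. The 2 genes that DESeq2 called higher were both in this list and are named after their values were seen. Hyal1, encoding a hyaluronidase, had a log2 fold change of 0.73 (SE 0.17, edgeR adjusted p = 0.0661, DESeq2 adjusted p = 0.00413), with all DKO libraries above all WT libraries. Cd44, encoding a hyaluronan receptor, had 0.59 (SE 0.18, edgeR adjusted p = 0.151, DESeq2 adjusted p = 0.0491). The other proteases and inhibitors divided into 11 below and 10 above 0, with Plaur, the urokinase receptor, at 0.83 (SE 0.32, edgeR adjusted p = 0.259). Of the 8 other collagens tested, 5 were below 0, and Col8a1 had a log2 fold change of -0.74 (SE 0.62, edgeR adjusted p = 0.662). The 3 other crosslinking enzymes were all below 0, and the transglutaminase gene Tgm2 had -0.51 (SE 0.19, edgeR adjusted p = 0.233).

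The summed level of fibroblast markers that are not matrix genes overlapped between the groups. It was between 99.4 and 128.1 CPM in WT and between 84.2 and 128.5 in DKO, a log2 ratio of means of -0.07, or -0.36 with total-count scaling. Ly6a, Dpep1 and Cd34 were the largest parts of this sum. Of 12 such markers 9 were tested, 7 below 0 and 2 above, with a median log2 fold change of -0.08. Neither edgeR nor DESeq2 called any, and 0 had an unadjusted edgeR p under 0.05. Pdgfra, the receptor that marks stromal fibroblasts, had -0.49 (SE 0.25) and Ly6a had 0.08 (SE 0.11). Tcf21, Twist2 and Clec3b were under the filter, with Tcf21 at 0 in 7 of 9 libraries. DKO 5, the lowest library for the members, was also the lowest for this list.

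Markers of myoepithelial cells, the contractile cells around acini, were also lower in DKO. Their summed level was between 630.2 and 1010 CPM in WT and between 247.1 and 570.3 CPM in DKO, and 8 of 8 tested markers were below 0, with a median log2 fold change of -1.07. Myh11 fell by 1.06, Mylk by 1.33 and Tagln by 1.47 on the log2 scale (edgeR adjusted p = 0.0478, 0.0479 and 0.0478). These contractile genes are also made by smooth muscle, and the myoepithelial nuclear factor Trp63 had -0.12 (SE 0.18). Within DKO, the summed level was highest in DKO 4 and lowest in DKO 3. The sum of the matrix genes was also highest in DKO 4 but lowest in DKO 5. The part of myoepithelial cells in the matrix gene values was not tested.

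Granular duct genes were summed at between 25270 and 58190 CPM in WT and between 3969 and 20160 in DKO, with 6 of 6 below 0. The edgeR test called none of them, 4 had an unadjusted p under 0.05, and DESeq2 called 4. Acinar genes were summed at between 156800 and 235000 CPM in WT and between 238300 and 389400 in DKO, with 6 of 6 above 0. None passed edgeR, 3 had an unadjusted p under 0.05, and DESeq2 called Mucl2 and Prol1. Vascular mural markers had a log2 ratio of means of 0.10 and endothelial markers 0.27, and both turned negative with total-count scaling, which put the median of all genes at -0.278. Macrophage markers had -0.28, with 6 of 6 below 0, none called by edgeR or DESeq2 and 0 at an unadjusted p under 0.05. Of the 3 skeletal muscle markers tested, edgeR called Acta1 lower, where 0.462% of all genes were called lower. Ckm had a log2 fold change of 0.614 (SE 0.265) and Mylpf had -0.779 (SE 0.438), and neither edgeR nor DESeq2 called them. Myh4 and Myh1 were at 0 in all libraries. Schwann cell markers had a log2 ratio of means of 0.05, lymphocyte markers -0.13, adipocyte markers 0.15 and sublingual markers 0.59, the last 3 with 1 gene each past the filter. The part of these cell types in the matrix gene values was not tested.

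**Figure D4:**
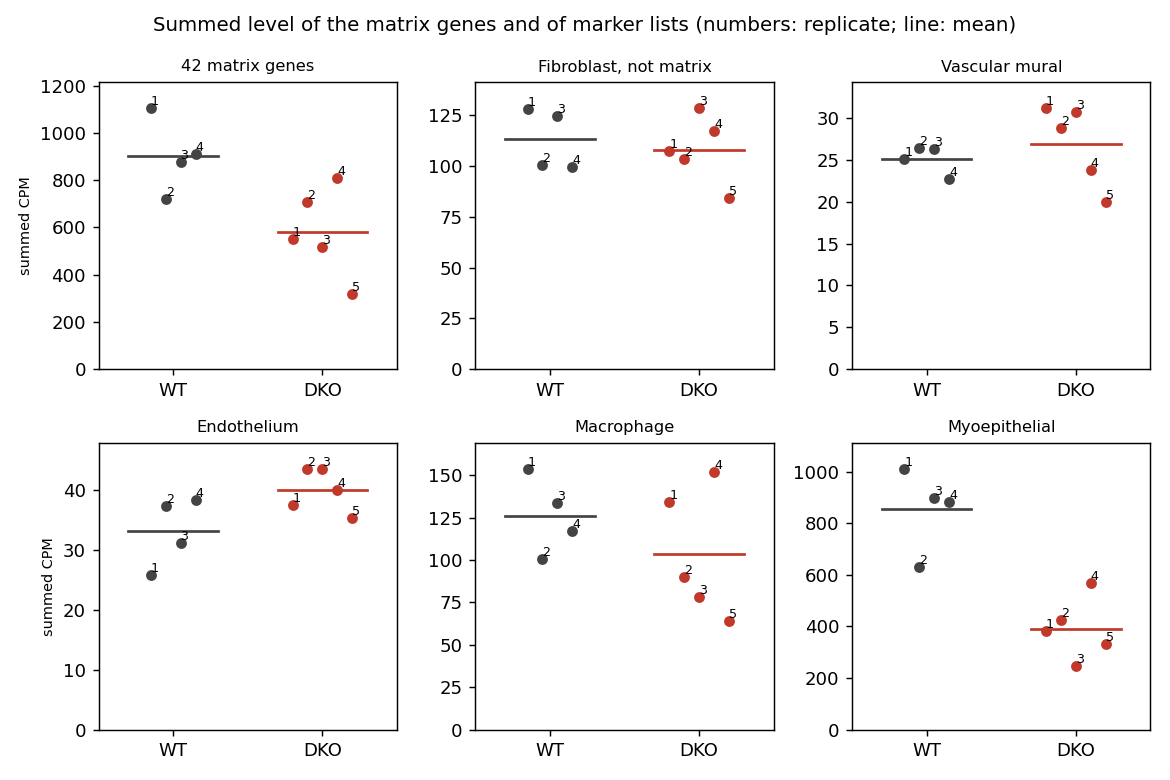
Summed CPM (y axis, from 0) of the 42 matrix genes and of 5 marker lists in each WT (grey) and DKO (red) library, with replicate numbers and the mean as a line. The myoepithelial sums do not overlap between groups, and the fibroblast sums overlap, at 99.4 to 128.1 CPM in WT and 84.2 to 128.5 in DKO.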

How the data were processed

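RNA of 9 SMGs from male mice (4 WT, 5 DKO) was sequenced by the authors from unstranded Nextera XT libraries on a HiSeq2500, and libraries of female glands were not used. The deposited files hold raw read counts per gene, the same counts without low rows, and signal values, which are those counts divided by a TMM-scaled library size. The submitters' processing notes list STAR 2.5.2a, DESeq2, edgeR and limma and the builds GRCm38, mm10 and GRCh38, with no role given, and the counting tool and annotation are not given in the sources used here. All 158058 signal values (100%) gave whole counts within 0.01, and edgeR on these called 13 of 17562 genes and 0 members.

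Counts were fitted in R 4.3.3 with edgeR 4.0.16 (TMM factors, minimum count 10, minimum total 15, legacy quasi-likelihood fit, genotype alone), which left 13842 of 48733 rows. Depth was between 17053747 and 37870519 counts per library. P-values were adjusted by Benjamini-Hochberg over all genes tested. DESeq2 1.42.0, named in the study's methods, and limma 3.58.1 were alternatives, as were other scalings, filters, the replicate number as a block and leaving out each library. Standard errors are the log2 fold change over the square root of F. Ratios had 0.5 added to each count. Fits were tested on simulated data. Positions come from GENCODE M21 (GRCm38). Python 3.11.15 and matplotlib 3.10.9 drew the figures.

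Values in every library are given for members with an adjusted p under 0.05, an absolute log2 fold change of at least 1 or groups that do not overlap, and for the member with the most reads in each role. Outside the members, called genes are named, or the gene with the smallest adjusted p in a list. The members and lists were chosen with earlier results of these data known.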

Additional observations from a re-analysis of the deposited data

Results flagged for a closer look

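In 90 groups of 4 or 5 libraries examined (each tested member and each ratio, by genotype), 3 had a library farther from the others than the 95% limit of Dixon's test, which chance alone passes in about 1 of 20. Col5a2 was at 5.66 CPM in WT 2 and between 6.70 and 6.79 in the other 3 WT libraries. Col6a3 was at 5.54 CPM in WT 1 and between 3.82 and 3.98 in the other 3. Pcolce was at 37.8 CPM in WT 2 and between 55.2 and 57.0 in the other 3.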

How the results depend on the processing

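The median log2 fold change of the members stayed below 0 in all 21 alternatives, and the count of members called by an adjusted p did not hold. Members called were 7 with DESeq2, 3 with total counts, 2 with limma-voom, with no filter and with the gland number range as a term, and 0 with upper quartile factors, with the filtered table, with limma on the normalized table and with counts recovered from that table (an alternative chosen after seeing the data). In the same order these fits called 616, 357, 148, 347, 332, 5, 13, 6 and 13 genes in the whole table. The recovered counts equalled the filtered counts, so these 2 alternatives are the same fit. Other matrix genes called were 7, 4, 3, 5 and 4 with DESeq2, total counts, limma-voom, no filter and the gland term, and 0 in the other 4. An unadjusted p under 0.05 was found for between 11 and 26 members in these and the leave-one-out fits. Leaving out each library gave between 0 and 7 members called, between 0 and 6 other matrix genes called and between 5 and 15 members without overlap. The highest member count came without DKO 4 and the highest count without overlap came without WT 2. Total-count scaling moved the median member to -0.79, with 8 members without overlap, while the median of all genes moved to -0.278. The share of all genes without overlap is given for the full set of libraries with TMM factors alone. Counts without overlap under other settings have no such share beside them, and with a library left out groups separate more easily for any gene.

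With the replicate number as a block, edgeR called 0 of 13847 genes, so 0 members and 0 other matrix genes, and 34 of 41 members were lower, after DKO 5, which has no partner, was dropped. Same-numbered libraries correlated at 0.139, 0.290, 0.068 and 0.012. The DKO library that correlated best with a WT library had its number for WT 1 and WT 2 but not for WT 3 and WT 4. The labels do not state a pairing, and these values cannot show whether there was one. Under the block, Eln, Fbln5 and Mmp3 were at 0.072, 0.075 and 0.018. The log2 ratio difference of Col3a1 to Col1a1 was between -0.045 and 0.254 with a library left out, reversed without WT 2 (-0.027) and without WT 4 (-0.045). Col6a1 to Col6a2 lay between 0.264 and 0.541, and Timp2 to Mmp2 between -0.825 and -0.255, both past p of 0.05 without DKO 5 (exact permutation p = 0.0286). With a library left out, the log2 fold change of Mmp3 lay between -0.413 and 0.134, of Mmp2 between -0.012 and 0.366 and of Fbln5 between -0.233 and 0.090, changing sign without WT 1 and DKO 5, without DKO 3 and without DKO 5. Mmp2 was -0.13 with total counts. With total counts the log2 ratio of means was -0.20 for mural, -0.36 for fibroblast, -0.025 for endothelial, -0.23 for Schwann and -0.27 for adipocyte markers. The causes were not tested. Depth limits Thbs2, Loxl2, Lox, Col12a1 and Vcan, at about 1 CPM or less.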
